A study of Mus musculus with 12 samples.

Results

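Complexes I to IV of the mitochondrial respiratory chain were followed through the mRNAs of their nuclear-encoded subunits in mouse tumours. The members were the genes whose symbols start with Nduf (letters a, b, c, s or v), Sdh (a to d), Uqcr, or Cox4 to Cox8. Rows of suffixed gene copies (5), rows ending in -ps (2) and the muscle forms Cox6a2, Cox7a1 and Cox8b (3) were left out. Of the -ps rows, Ndufb1-ps held 691 to 1580 counts in a library. The rule found 67 of the 43698 rows of the count table, of which 38 belong to complex I, 4 to complex II, 8 to complex III and 17 to complex IV. Ndufa4 and its paralog Ndufa4l2 were counted with complex IV, where the Ndufa4 protein sits. The rule reads symbols only, so Cyc1, a subunit of complex III, and Ndufab1, a subunit of complex I, were not members and stand in related lists. Of the 67 members, 64 passed the filter on low counts and were tested. Cox7b2 and Cox8c had 0 counts in every library and Ndufa11b had at most 2 counts.

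C57BL/6J mice, 8 weeks old at inoculation, carried subcutaneous tumours of MC38, a line from a mouse colon carcinoma, which were harvested on day 20. There were 6 groups of 2 libraries each. RP was read as the conjugate Ru-PD-L1, an antibody against the checkpoint ligand PD-L1 carrying a ruthenium catalyst (20 µg, 0.80 mg/kg). R+X was taken to combine the conjugate with DOX, since X is a letter of that drug's name alone, and R+D to combine it with DPD; in both, 14 µg of drug was injected beside the tumour 6 hours after the conjugate. DPD, the prodrug of doxorubicin, and DOX, doxorubicin itself, were given alone at 14 µg (0.56 mg/kg). Ctrl mice received PBS. The single agents and PBS were injected into the peritoneum every 3 days from day 9, so that the route of the drug differs between the combinations and the drugs alone. If the readings of R+X and R+D were exchanged, the values given for them would change places. Nothing in the labels says whether a group's libraries are from separate mice, so the p-values measure the spread between these libraries, which may be technical.

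Complex I takes electrons from NADH, complex II takes them from succinate, and both hand them to ubiquinone. Complex III passes them on to cytochrome c, and complex IV reduces oxygen to water with them. Complexes I, III and IV pump protons as they do so, and ATP synthase uses the resulting gradient. Complex II is encoded by nuclear genes alone, while the other complexes also hold subunits made from mitochondrial DNA, which were not analysed here. In many tumours these mRNAs are studied as a measure of oxidative metabolism.

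The libraries held 46547114 to 56462259 counted reads. Library labels could not be checked against a targeted gene, because no gene was deleted or knocked down. The usual epithelial markers of a colon carcinoma were scarce: Cdx2 had 0 counts in every library, Krt8 and Krt18 did not exceed 0.309 CPM (the read count relative to the library's total after TMM scaling), and Cdh1 ranged from 9.9 to 18.1 CPM. Bulk tumour RNA cannot tell fewer cells of a type from less RNA per cell. In the summed level of the members, the 2 libraries of a group differed most in DOX and Ctrl. Since every comparison with Ctrl uses the same 2 Ctrl libraries, those comparisons are not independent of each other.

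Summed over the 64 tested members, the mRNA level was 4466 and 3365 CPM in the RP libraries, 3906 and 4253 CPM in R+X, 3730 and 4145 CPM in R+D, 4943 and 3643 CPM in DPD, 6638 and 3637 CPM in DOX, and 4815 and 6924 CPM in Ctrl. The 3 groups that received the conjugate had all 6 libraries below both Ctrl libraries. The DPD and DOX groups each had 1 library inside the Ctrl range and 1 below it, and the DOX libraries lay farther apart than those of any other group. The highest library was Ctrl replicate 2 and the lowest RP replicate 2, a ratio of 2.06.

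Each complex showed the same order at its ends. Complex I summed to 1889 and 1425 CPM in RP, 1673 and 1807 CPM in R+X, 1606 and 1763 CPM in R+D, 2130 and 1564 CPM in DPD, 2844 and 1538 CPM in DOX, and 2074 and 2953 CPM in Ctrl. Complex II, which oxidises succinate in the citric acid cycle, summed to 465 and 409 CPM in RP, 461 and 504 CPM in R+X, 440 and 453 CPM in R+D, 549 and 436 CPM in DPD, 640 and 447 CPM in DOX, and 542 and 707 CPM in Ctrl. Complex III summed to 643 and 496 CPM in RP, 580 and 616 CPM in R+X, 534 and 602 CPM in R+D, 709 and 538 CPM in DPD, 905 and 527 CPM in DOX, and 676 and 964 CPM in Ctrl. Among these 3 complexes, every library of RP, R+X and R+D was below the lower Ctrl library. Complex IV summed to 1468 and 1035 CPM in RP, 1192 and 1326 CPM in R+X, 1150 and 1327 CPM in R+D, 1555 and 1105 CPM in DPD, 2248 and 1125 CPM in DOX, and 1523 and 2298 CPM in Ctrl. This held in complex IV too, with RP replicate 1 the nearest to it. The ratio of the highest to the lowest library was 2.07 for complex I, 1.73 for complex II, 1.94 for complex III and 2.22 for complex IV. The split between complexes moved little: complex I took 42.3% to 43.1% of the members' CPM, complex II 9.65% to 12.3%, complex III 13.6% to 14.8% and complex IV 30.3% to 33.9%, in CPM that were not divided by length.

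**Figure D1:**
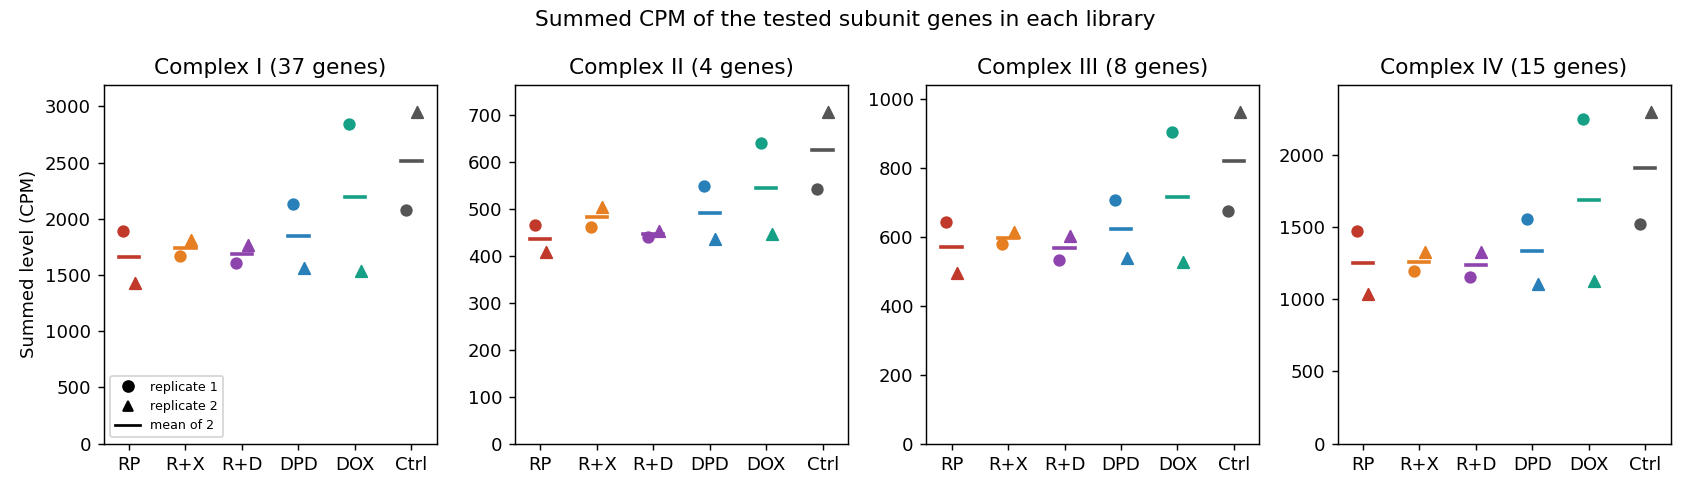
Summed CPM of the tested subunit genes of each complex (vertical axes, starting at 0) in the 12 libraries, by group; circles are replicate 1, triangles replicate 2 and bars the mean of the 2. The 6 libraries of RP, R+X and R+D lie below both Ctrl libraries, Ctrl replicate 2 is the highest point in each panel, and the 2 DOX libraries are far apart.

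Levels of different genes were compared per length of transcript. In CPM per kb, averaged over the 12 libraries, the leading member of complex I was Ndufa6, an accessory subunit, at 164, and the lowest was Ndufb4c, a rarely counted copy of Ndufb4, at 0.689. In complex II, Sdhb, the iron-sulphur subunit, stood highest at 111 CPM per kb and Sdha, the flavoprotein that holds the active site, lowest at 54.9. In complex III, Uqcrq, a small ubiquinone-binding protein, stood at 223.4 CPM per kb and Uqcr11, the smallest accessory subunit, at 59.9. In complex IV, Cox4i1, the main isoform of a subunit that senses ATP, reached 449 CPM per kb, and Cox6b2, the testis form of Cox6b, 0.432. The median member had 53.1 CPM per kb in complex I (36 members with a length), 71.3 in complex II, 71.9 in complex III and 147 in complex IV.

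In 3 of the 4 isoform pairs counted, the ubiquitous member had most of the counts. Cox4i2, the form that lung tissue and hypoxic cells use, had 40 to 66 counts and between 0.163% and 0.517% of the CPM of Cox4i1. Cox6b2 had 0 to 18 counts and at most 0.503% of the CPM of Cox6b1. Ndufa4l2, a hypoxia-induced paralog of Ndufa4, had 98 to 419 counts and between 7.15% (DPD replicate 2) and 23.6% (RP replicate 2) of the CPM of Ndufa4. Cox7a2l, a factor that joins complexes III and IV into supercomplexes, had 137% to 293% of the CPM of Cox7a2, in CPM not divided by length. Cox8a had no partner among the members to set it against, since Cox8c had 0 counts and Cox8b was left out as a muscle form.

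Subunits differed in how far their level ranged over the 12 libraries. The highest library was above the lowest by a median factor of 2.34 over the 63 members with no library at 0, by more than 2 for 54 of them and by more than 3 for 11. At the narrow end stood the large catalytic subunits. Sdha had 175 and 146 CPM in RP, 156 and 166 CPM in R+X, 157 and 153 CPM in R+D, 161 and 164 CPM in DPD, 170.0 and 140 CPM in DOX, and 162 and 161 CPM in Ctrl. Ndufs1, the largest iron-sulphur subunit of complex I, had 61.6 and 66.0 CPM in RP, 65.9 and 64.6 CPM in R+X, 59.1 and 66.7 CPM in R+D, 68.4 and 64.9 CPM in DPD, 61.6 and 63.7 CPM in DOX, and 65.6 and 74.0 CPM in Ctrl. Both genes were nearly level over all groups.

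At the wide end stood small subunits. Uqcr11 had 41.9 and 16.1 CPM in RP, 18.3 and 19.6 CPM in R+X, 21.8 and 21.6 CPM in R+D, 26.97 and 23.8 CPM in DPD, 56.8 and 10.3 CPM in DOX, and 27.7 and 35.1 CPM in Ctrl. Cox5b, a zinc-binding subunit of complex IV, had 78.7 and 32.8 CPM in RP, 42.8 and 45.2 CPM in R+X, 42.1 and 48.7 CPM in R+D, 56.3 and 47.5 CPM in DPD, 113 and 25.9 CPM in DOX, and 60.3 and 82.4 CPM in Ctrl. For these 2 genes the DOX libraries were both the highest and the lowest of the 12, so no group stood clear of all the others. The R+X, R+D and DPD libraries were below both Ctrl libraries, while RP and DOX overlapped Ctrl. Over 63 members the ratio of highest to lowest library had a Spearman correlation of -0.53 with transcript length, given as a description since the members share all libraries. The highest library was Ctrl replicate 2 for 47 members, DOX replicate 1 for 16 and RP replicate 1 for 1. The lowest was DOX replicate 2 for 27 members, RP replicate 2 for 23 and DPD replicate 2 for 9.

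**Figure D2:**
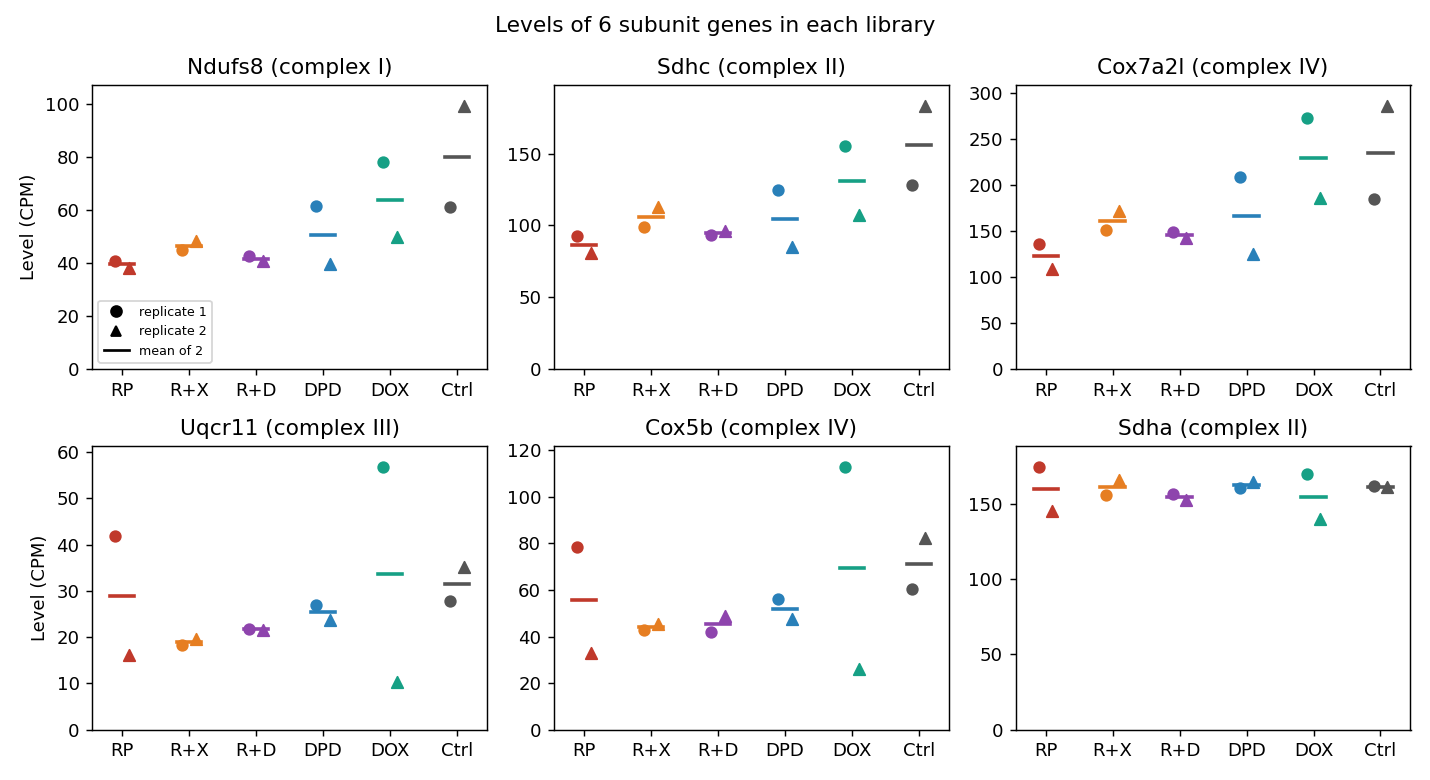
Levels of 6 subunit genes in CPM (vertical axes, starting at 0) in the 12 libraries, by group; circles are replicate 1, triangles replicate 2 and bars the mean of the 2. Ndufs8, Sdhc and Cox7a2l were below both Ctrl libraries in every conjugate library. Uqcr11 and Cox5b had their highest and lowest levels in the 2 DOX libraries, and Sdha was nearly level.

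The libraries of 1 group differed in these genes together. Replicate 1 was above replicate 2 for 62 of 64 members in DOX (median difference 1.01 in log2 CPM), for 63 in DPD (0.46) and for 58 in RP (0.40). It was above for 1 of 64 members in Ctrl (-0.53), 13 in R+D (-0.17) and 10 in R+X (-0.10). Over all 19525 genes tested, replicate 1 was higher for 48.2% to 50.3% of the genes, depending on the group, with medians within 0.01 of 0. The SD between the libraries of a group was 0.37 in the mean log2 CPM of the members, pooled over the 6 groups. In DOX the difference had a Spearman correlation of -0.56 with transcript length over 63 members and of -0.43 over the 16252 genes with a length. In RP these correlations were -0.39 and -0.23, in R+D 0.34 and 0.19, in DPD -0.06 and -0.41, in R+X 0.02 and 0.09, and in Ctrl 0.23 and 0.41. By length, the 21 shortest members (382 to 576 bases) differed between the DOX libraries by a median of 1.14, and the 21 longest (980 to 2900 bases) by 0.58. For the shortest and the longest members the medians were 0.53 and 0.21 in RP, -0.25 and -0.04 in R+D, and -0.62 and -0.45 in Ctrl, so that the shortest members differed more in these groups too, while in DPD (0.46 and 0.46) and R+X (-0.09 and -0.11) they did not. With the trend of log2 fold change with length over all genes removed, the members' median moved nearer to 0 by more than 1.5 times in all 5 comparisons with Ctrl, in DPD against DOX and in the averaged conjugate comparison, as given beside each.

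**Figure D3:**
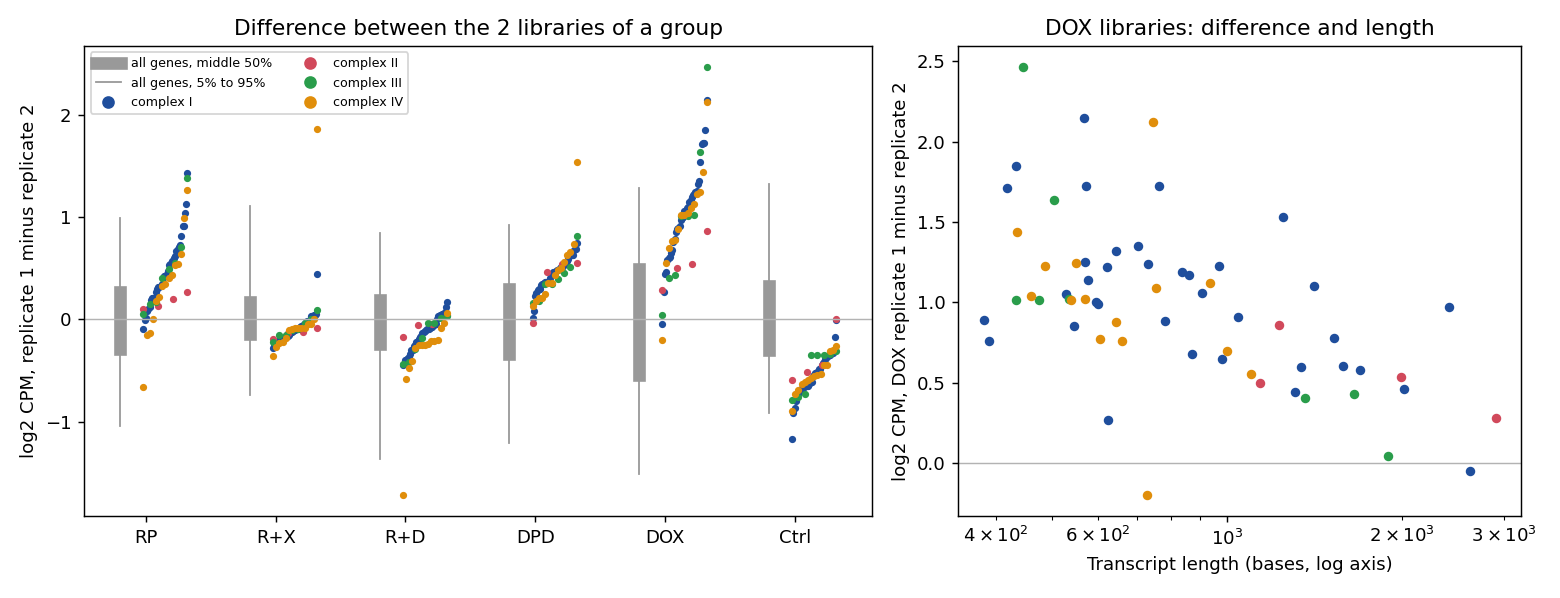
Left, difference in log2 CPM between replicate 1 and replicate 2 of each group for the 64 members (points, coloured by complex) and for all genes tested (grey: thick bar, middle 50%; thin line, 5% to 95%). Right, the DOX difference of the members against transcript length (log axis), with shorter transcripts lying higher; the members are shifted as a body in DOX, DPD, RP and Ctrl.

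RP against Ctrl asked what the conjugate alone did. All 64 members were lower in RP, at a median log2 fold change of -0.57, with none past the threshold (edgeR quasi-likelihood test, adjusted p under 0.05 over all genes, which 0.0154% of all genes passed). By complex the median was -0.61 in complex I, -0.69 in complex II, -0.53 in complex III and -0.50 in complex IV. Over all genes 46.1% were lower, with a median of 0.06. At an unadjusted p under 0.05, 22 of 64 members (34.4%) were lower, where 9.38% of all genes were. Both RP libraries were below both Ctrl libraries for 39 members, where 27.1% of all genes were.

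The 3 members of smallest p were Ndufs8, Ndufa10 and Sdhc. Ndufs8, an iron-sulphur subunit near the quinone site of complex I, had 40.9 and 38.2 CPM in RP, 44.8 and 48.2 CPM in R+X, 42.5 and 40.9 CPM in R+D, 61.5 and 39.6 CPM in DPD, 78.0 and 49.7 CPM in DOX, and 61.1 and 99.3 CPM in Ctrl. The 6 conjugate libraries were below both Ctrl libraries, while DPD and DOX overlapped Ctrl. Its log2 fold change in RP was -1.02 ± 0.28 (SE; edgeR adjusted p = 0.146). Ndufa10, an accessory subunit of the complex I membrane arm, had 78.5 and 68.1 CPM in RP against 108 and 138 CPM in Ctrl, a log2 fold change of -0.75 ± 0.21 (edgeR adjusted p = 0.146). Sdhc, a membrane anchor of complex II, had 92.4 and 80.7 CPM in RP against 128 and 183 CPM in Ctrl, a log2 fold change of -0.85 ± 0.24 (edgeR adjusted p = 0.151). For these 3 genes the RP and Ctrl libraries did not overlap, and none passed the edgeR threshold.

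The remaining core subunits followed with smaller or wider differences. In complex I, which Ndufv1 and Ndufv2 enter as the NADH-binding flavoprotein part, Ndufv1 had a log2 fold change in RP of -0.60 ± 0.25 and Ndufv2 of -0.63 ± 0.26. Ndufs7, an iron-sulphur subunit near the quinone site, was at -0.65 ± 0.27 and Ndufs3 at -0.63 ± 0.31. Ndufs1 was at -0.13 ± 0.14. Their edgeR adjusted p-values lay between 0.207 and 0.58. In complex II, Sdhb was at -0.76 ± 0.24 (105 and 96.1 CPM in RP, 136 and 205 CPM in Ctrl) and Sdhd, the other anchor, at -0.61 ± 0.27, but Sdha at -0.01 ± 0.15 (95% interval -0.34 to 0.32). The 3 smaller subunits of complex II had thus lower RP values than both Ctrl libraries, and the catalytic subunit overlapped them.

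In complex III, Uqcrc1 and Uqcrc2, the core proteins, were at -0.56 ± 0.19 and -0.39 ± 0.15 on the log2 scale in RP, and Uqcrfs1, the Rieske iron-sulphur protein, at -0.49 ± 0.19. Uqcrc1 had 103 and 91.5 CPM in RP against 126 and 161 CPM in Ctrl, without overlap. Uqcr11 was at -0.12 ± 0.61, an interval of -1.47 to 1.23 that holds changes of either sign. In complex IV, Cox7a2l had 136 and 109 CPM in RP against 185 and 286 CPM in Ctrl, a log2 fold change of -0.94 ± 0.29 (edgeR adjusted p = 0.157). Cox4i1 had 323 and 208 CPM in RP against 360 and 596 CPM in Ctrl, a log2 fold change of -0.85 ± 0.37. Cox5a was at -0.53 ± 0.29 and Cox5b at -0.36 ± 0.55. The isoforms Cox4i2 (-0.32 ± 0.34), Ndufa4l2 (-0.15 ± 0.50) and Cox6b2 (-0.24 ± 1.06) had small or imprecise differences.

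DESeq2 called 5 members lower in RP than in Ctrl, where it called 6.2% of all genes: Ndufs8, Ndufa10, Sdhc, Cox7a2l and Sdhb (adjusted p from 0.0175 to 0.0472). With only the RP and Ctrl libraries in the edgeR fit, 1 member was called, Ndufs8, where 2.77% of all genes were. Without Ctrl replicate 2 the median was -0.25, with 59 of 64 members lower, and without RP replicate 1 it was -0.87. With the length trend of all genes removed the median was -0.25, with 52 of 63 members lower.

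R+X against Ctrl added DOX to the conjugate. All 64 members were lower in R+X, at a median log2 fold change of -0.57 (edgeR, 0 called, against 0% of all genes). At an unadjusted p under 0.05, 6 members were lower, where 2.47% of all genes were, and both R+X libraries were below both Ctrl libraries for 60 members, where 27.5% of all genes were. Ndufs8 was at -0.79 ± 0.28 and Ndufb5, an accessory subunit of the membrane arm, at -0.58 ± 0.25 on the log2 scale. Ndufa4, a subunit of complex IV, had 30.4 and 32.4 CPM in R+X against 40.2 and 74.7 CPM in Ctrl, a log2 fold change of -0.87 ± 0.36 (edgeR adjusted p = 0.575 for all 3). With the length trend removed the median was -0.19, and without Ctrl replicate 2 it was -0.26.

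R+D against Ctrl added DPD to the conjugate. All 64 members were lower in R+D, at a median log2 fold change of -0.59 (edgeR, 0 called, against 0% of all genes). At an unadjusted p under 0.05, 19 members were lower, where 6.66% of all genes were, and both R+D libraries were below both Ctrl libraries for 53 members, where 27.4% of all genes were. Ndufs8 was at -0.94 ± 0.28, Sdhc, with 93.6 and 96.3 CPM in R+D, at -0.71 ± 0.24, and Ndufb5, with 58.6 and 57.3 CPM in R+D against 75.04 and 118 CPM in Ctrl, at -0.74 ± 0.25 on the log2 scale (edgeR adjusted p = 0.314 for all 3). Without Ctrl replicate 2 the median was -0.31, and with the length trend removed -0.26.

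DPD against Ctrl gave a median of -0.49, with 63 of 64 members lower and Sdha at 0.01 on the log2 scale (edgeR, 0 called, against 0% of all genes). At an unadjusted p under 0.05, 4 members were lower, where 1.4% of all genes were, and both DPD libraries were below both Ctrl libraries for 20 members, where 17.6% of all genes were. Ndufb2, an accessory subunit of the membrane arm, had 20.1 and 13.8 CPM in DPD against 21.2 and 38.8 CPM in Ctrl, a log2 fold change of -0.82 ± 0.34 (edgeR adjusted p = 0.725). Ndufs8 was at -0.67 ± 0.28 and Sdhc at -0.57 ± 0.24, both with DPD replicate 1 close to Ctrl replicate 1. Without Ctrl replicate 2 the median was -0.19, and with the length trend removed -0.21.

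DOX against Ctrl had no stable direction. The median log2 fold change was -0.24, with 62 of 64 members lower in DOX (edgeR, 0 called, against 0% of all genes; 0 at an unadjusted p under 0.05 and lower, where 1.22% of all genes were). Both DOX libraries were below both Ctrl libraries for 3 members, where 9.43% of all genes were. Cox7b, a small accessory subunit of complex IV, had 58.2 and 35.9 CPM in DOX against 54.1 and 73.7 CPM in Ctrl, a log2 fold change of -0.44 ± 0.23. Cox6b2 was at -1.61 ± 1.14 from at most 18 counts, and Ndufa4l2 at -0.70 ± 0.51. The edgeR adjusted p was 1 for all 3. Without DOX replicate 1 the median was -0.83, and without DOX replicate 2 it was 0.15. With the length trend removed it was -0.11.

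**Figure D4:**
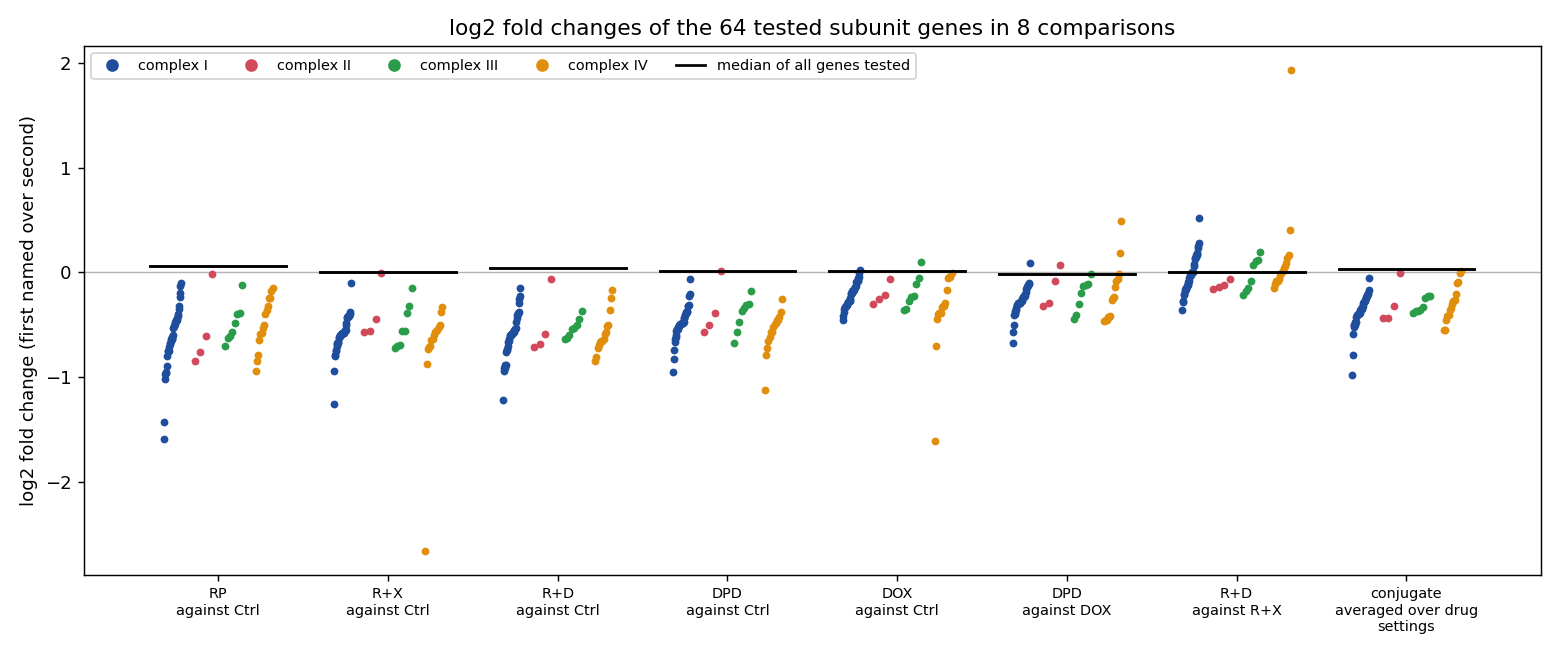
log2 fold changes (vertical axis) of the 64 tested members in 8 comparisons, coloured by complex, with the median of all genes tested as a black bar. At least 62 of the 64 members lie below 0 in each of the 5 comparisons with Ctrl, which share the Ctrl libraries, with medians from -0.59 (R+D) to -0.24 (DOX), and on both sides of 0 in R+D against R+X; no member passed the edgeR threshold.

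DPD and DOX differ by the change that makes doxorubicin a prodrug, and were compared at the same mass dose, time and route. The members' median log2 fold change, DPD over DOX, was -0.26, with 60 of 64 lower in DPD (edgeR, 0 called, against 0% of all genes; 0 at an unadjusted p under 0.05 and lower, where 1.28% of all genes were). Both DPD libraries were below both DOX libraries for 1 member, where 10.4% of all genes were. Cox7a2l had 209 and 125 CPM in DPD against 272.5 and 186 CPM in DOX, a log2 fold change of -0.46 (95% interval -1.09 to 0.17). Ndufa7, an accessory subunit of complex I, had 25.03 and 14.9 CPM in DPD against 38.2 and 18.4 CPM in DOX, a log2 fold change of -0.50 (-1.28 to 0.27). Sdhc was at -0.32 (-0.86 to 0.22). The edgeR adjusted p was 0.979 for all 3, and each interval holds 0. Without DOX replicate 1 the median was 0.33, and without DOX replicate 2 it was -0.65. With the length trend removed it was -0.12.

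With the conjugate, R+D and R+X were compared at the same drug amount, route and time. The members split, 35 lower and 29 higher in R+D, with a median of -0.02 (edgeR, 0 called, against 0% of all genes; 0 at an unadjusted p under 0.05 and lower, where 1.52% of all genes were). Both R+D libraries were below both R+X libraries for 17 members, where 23% of all genes were, and above them for 8, where 4389 of the 19525 genes were. The even split depended on the model: with the level of skeletal muscle genes as a covariate, 55 of 64 members were lower in R+D. Their median was then -0.17. Uqcrc2 had 104 and 106 CPM in R+D against 118 and 126 CPM in R+X, a log2 fold change of -0.22 (95% interval -0.54 to 0.11). Cox4i2 was at 0.40 (-0.36 to 1.16), and Cox6b2 at 1.93 (-0.79 to 4.66), where the R+X libraries held 5 and 0 counts. The edgeR adjusted p was 1 for all 3. Over the 2 pairs of compounds, the difference between the prodrug effect with and without the conjugate had a median of 0.24. It was higher for 53 of 64 members. In edgeR, 0 members and 0 of all genes were called, and 0 members had an unadjusted p under 0.05 (smallest adjusted p 0.9999). For this difference, the shares of all genes that were higher or at that unadjusted p were not counted.

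Averaged over no drug, DOX and DPD, the groups with the conjugate were set against those without it. Here 63 of 64 members were lower with the conjugate, at a median log2 fold change of -0.35, with none past the edgeR threshold, which 0.0154% of all genes passed. At an unadjusted p under 0.05, 22 members were lower, where 9.47% of all genes were. The differences behind the mean were unequal: the median was -0.57 for RP against Ctrl, -0.36 for R+X against DOX and -0.11 for R+D against DPD. The last 2 were added after the data were seen, and in each the route of the drug differs as well as the conjugate. Ndufs8 averaged 42.6 CPM with the conjugate and 64.9 CPM without it, a log2 fold change of -0.59 ± 0.16 (edgeR adjusted p = 0.168). Ndufa10 was at -0.43 ± 0.12 and Cox7a2l at -0.55 ± 0.16 on the log2 scale.

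This averaged comparison depended on 1 library. Without DOX replicate 2, edgeR called 26 members, all lower with the conjugate, where 15.6% of all genes were called. Of these, 18 belong to complex I, 3 to complex II, 1 to complex III and 4 to complex IV, with log2 fold changes from -0.69 to -0.42 and adjusted p from 0.0336 to 0.0431. Without DOX replicate 1 the members' median was -0.13, against -0.50 without DOX replicate 2. With all libraries and the length trend removed the median was -0.14. DESeq2 on all libraries called Ndufs8, Ndufa10, Cox7a2l and Uqcrc1, where it called 4.87% of all genes. A test for any difference between the 6 groups called 0 members (edgeR; 0.0154% of all genes), with 4 at an unadjusted p under 0.05 (9.44% of all genes) and the smallest adjusted p, 0.456, at Ndufs8. DESeq2 called 0 members there too, but its share of all genes in that test was not counted. It also called 0 in R+D against Ctrl, where it called 1.19% of all genes, in R+D against R+X (0.215% of all genes), and in R+X, DPD and DOX against Ctrl and DPD against DOX (0.00512% to 0.0461% of all genes).

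Genes that work beside the complexes were taken from lists of known function. None of their members passed the edgeR threshold in RP against Ctrl. ATP synthase, complex V, was lower for 18 of 18 genes at a median log2 fold change of -0.59, with Atp5c1 at -0.60 ± 0.19 and Atp5o at -0.86 ± 0.30. Assembly factors were lower for 18 of 19 genes of complex I (median -0.45), 9 of 10 of complexes II and III (-0.41) and 24 of 26 of complex IV (-0.39). The assembly factors of smallest p were Ndufaf6 (-0.60 ± 0.21) and Tmem126a (-0.65 ± 0.24) for complex I, Sdhaf2 (-0.42 ± 0.15) and Uqcc1 (-0.46 ± 0.17) for complexes II and III, and Cox20 (-1.43 ± 0.40) and Cox16 (-0.89 ± 0.26) for complex IV, both of which act on its second subunit. Carriers and dehydrogenases that feed the chain were lower for 18 of 21 genes (median -0.21), with Coq8a, a kinase-like factor of ubiquinone synthesis, at -0.88 ± 0.21 and Coq6, a hydroxylase of that pathway, at -0.56 ± 0.19. The citric acid cycle was lower for 14 of 16 genes (median -0.22), with Suclg1, a subunit of succinyl-CoA ligase, at -0.76 ± 0.24 and Idh3g, of isocitrate dehydrogenase, at -0.39 ± 0.14. Among 19 regulators of mitochondrial biogenesis 13 were lower (median -0.09), and the 2 of smallest p were higher in RP, the coactivator Ppargc1b at 0.88 ± 0.31 and the host cell factor Hcfc1 at 0.67 ± 0.24. Cyc1, cytochrome c1 of complex III, had 177 and 145 CPM in RP against 180 and 208 CPM in Ctrl. Ndufab1, an acyl carrier protein in complex I, averaged 60.9 CPM in R+X, 64.4 CPM in R+D and 93.6 CPM in Ctrl, at log2 fold changes of -0.62 ± 0.23 and -0.54 ± 0.23 against Ctrl.

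Other lists differed between the RP and Ctrl libraries as well. Cytosolic ribosomal proteins, another set of abundant mRNAs, were lower in RP for 24 of 24 listed genes (median log2 fold change -0.77, 0 called by edgeR; Rps14 at -1.25 ± 0.36), and summed to 26833 and 20024 CPM in RP, 26237 and 28605 CPM in R+X, 24455 and 25701 CPM in R+D, 33629 and 23478 CPM in DPD, 47953 and 26420 CPM in DOX, and 31694 and 48593 CPM in Ctrl. Red blood cell genes were lower in RP for 5 of 5 tested (0 called) and summed to 51.0 and 87.7 CPM in RP, 37.2 and 55.4 CPM in R+X, 21.7 and 32.6 CPM in R+D, 124 and 25.3 CPM in DPD, 368 and 347 CPM in DOX, and 223.2 and 260.3 CPM in Ctrl; 1 of the 6 listed genes was at 0 in every library. T cell genes were higher in RP for 13 of 13 tested (0 called), at 63.6 and 55.7 CPM in RP, 29.8 and 16.2 CPM in R+X, 36.5 and 61.2 CPM in R+D, 32.5 and 38.7 CPM in DPD, 20.7 and 19.6 CPM in DOX, and 33.5 and 26.6 CPM in Ctrl. Interferon gamma response genes were higher for 12 of 12 (0 called), at 2243 and 2716 CPM in RP, 1285 and 863 CPM in R+X, 1698 and 1897 CPM in R+D, 1269 and 1506 CPM in DPD, 810 and 878 CPM in DOX, and 1020 and 913 CPM in Ctrl. Endothelial genes were higher for 7 of 7 (median log2 fold change 0.85, 0 called). Of these, 6 were higher at an unadjusted p under 0.05, where 2351 of the 19525 genes tested were. Their sums were 173 and 132 CPM in RP, 93.5 to 121 CPM in R+X, R+D, DPD and DOX, and 102 and 80.0 CPM in Ctrl. Keratinocyte genes were higher for 9 of 10 (median 2.41, 0 called, 0 at an unadjusted p under 0.05), but their sums overlapped, at 404 and 524 CPM in RP, 310 to 476 CPM in R+X, R+D, DPD and DOX, and 460 and 393 CPM in Ctrl. Skeletal muscle genes, from a tissue rich in respiratory chain mRNA, were higher for 18 of 21 (0 called), at 408 and 202 CPM in RP, 114 and 98.1 CPM in R+X, 128 and 495 CPM in R+D, 119 and 109 CPM in DPD, 132 and 86.2 CPM in DOX, and 118 and 144 CPM in Ctrl. At an unadjusted p under 0.05, 8 T cell, 11 interferon and 17 muscle genes were higher in RP. At that p, 15 ribosomal and 5 red cell genes were lower, where 9.38% of all genes were. With the muscle level as a covariate the members' median in RP against Ctrl was -0.76, with 63 of 64 lower. The part of the ribosomal, red cell, T cell, interferon, endothelial and keratinocyte differences in the members' values was not tested.

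Nuclear genes for the respiratory chain share promoter motifs for the factors NRF1, GABP (an ETS factor) and YY1, and the start regions are shown as background. Whether these motifs bear on the members' levels in these libraries was not tested. Promoters in the RefSeq table (build GRCm38.p6, 250 bases before to 50 after the gene start) were found for 52 of the 67 members. The NRF1 core GCGCATGC occurred on either strand in 7 of the 52 (13.5%), against 2.71% of 32851 promoters in the table. The GABP core CCGGAAGT occurred in 4 (7.69%), against 3.89% of all promoters, and the YY1 core AAGATGGC in 7 (13.5%), against 2.75%. The NRF1 matches were in Cox6a1, Ndufa11, Ndufa6, Ndufa8, Sdhb, Uqcr11 and Uqcrc1, and every YY1 match began 23 to 39 bases after the start. A match is a run of letters, and binding was not measured. Of the 110 bases from 100 before to 10 after the start, 5 examples follow, written 5′ to 3′ on the strand of the gene. Uqcr11 ranged most over the libraries and holds a GABP and an NRF1 match, Cox8a a GABP match, Sdhb and Ndufa11 NRF1 matches, all in capitals, and Ndufs8, with the smallest p, holds none of the 3 cores in the window shown. They lie at chr10:80406812-80406921 (minus strand), chr19:7217607-7217716 (minus), chr4:140961171-140961280 (plus), chr17:56717662-56717771 (plus) and chr19:3912765-3912874 (minus), in the same order. In Ndufa11 a pair of overlapping NRF1 matches, 1 on each strand, makes the longer run of capitals.
Uqcr11: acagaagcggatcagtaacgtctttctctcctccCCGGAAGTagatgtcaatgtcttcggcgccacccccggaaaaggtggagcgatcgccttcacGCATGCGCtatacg
Cox8a: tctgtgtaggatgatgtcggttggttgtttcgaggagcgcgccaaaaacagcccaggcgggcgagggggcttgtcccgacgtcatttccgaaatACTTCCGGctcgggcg
Sdhb: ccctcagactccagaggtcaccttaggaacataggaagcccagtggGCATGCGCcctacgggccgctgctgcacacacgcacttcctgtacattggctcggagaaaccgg
Ndufa11: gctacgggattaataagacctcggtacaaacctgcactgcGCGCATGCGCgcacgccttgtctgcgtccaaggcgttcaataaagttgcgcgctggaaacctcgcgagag
Ndufs8: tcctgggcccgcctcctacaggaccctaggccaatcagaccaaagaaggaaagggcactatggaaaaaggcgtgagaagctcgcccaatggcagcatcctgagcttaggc

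Some members have close copies, so that reads could be split or lost between them. The suffixed row of Uqcrc1 held 98.0% to 99.4% of the count of the plain row and that of Ndufs3 103% to 109%, so the values of Uqcrc1, Ndufs3 and Ndufa7 are uncertain. Ndufb4b and Ndufb4c, copies of Ndufb4, did not exceed 0.998 and 0.580 CPM in any library. Their log2 fold changes in RP against Ctrl, -1.43 ± 0.63 for Ndufb4b and -1.59 ± 0.70 for Ndufb4c, were the lowest of the 64 members (edgeR adjusted p 0.225 and 0.227).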

How the data were processed

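Tumour RNA was sequenced from 12 libraries. Per the labels' protocols, the RNA came from a TRIzol extraction and the libraries from a NEBNext Ultra kit. The submitters' processing notes name HISAT2 2.1.0, StringTie 1.3.5, DESeq2 and build GRCm38; for annotation, strand setting and filters the sources used here say nothing, so overlapping genes cannot be told apart. The authors deposited whole-number read counts per gene, not normalised; the 12 per-library files equalled their columns of the whole table. The fit used edgeR 4.0.16 in R 4.3.3 on the whole table: filterByExpr (19525 genes kept), TMM scaling, quasi-likelihood F tests with 6 groups and 6 residual degrees of freedom (biological coefficient of variation 0.257), and Benjamini-Hochberg adjustment over all genes. DESeq2 1.42.0 was an alternative. The steps were tested on simulated data. log2 values of single libraries used a prior count of 2. Lengths came from GENCODE vM21 transcripts (63 of 64 tested members).

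The members and lists were chosen with earlier results of these data known. Text names core subunits, isoform pairs, the 3 members of smallest p in each comparison, the extremes of level per length, and the 2 genes of smallest p in related lists, apart from some that are not reported here; members of widest or narrowest range and those shown with promoters were chosen after their values were seen. Groups came from the agent label. The 95% intervals are from the edgeR fit.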

Additional observations from a re-analysis of the deposited data

Results flagged for a closer look

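Of the 3 muscle forms of complex IV subunits left out of the members, Cox8b in RP and Cox7a1 in R+D had both libraries above both Ctrl libraries in CPM. Such a separation was common, since 6307 of the 19525 genes tested had it in RP and 6023 in R+D. Cox8b averaged 0.366 CPM in RP (24 and 17 counts) and 0.0232 CPM in Ctrl (0 and 2 counts). Cox7a1 averaged 1.09 CPM in R+D (60 and 52 counts) and 0.790 CPM in Ctrl (32 and 41 counts), while DOX replicate 1 had 72 counts. In RP, Cox7a1 had 0.904 and 0.661 CPM, against 0.628 and 0.952 CPM in Ctrl. Cox6a2 overlapped Ctrl in both groups, with 2.18 and 1.04 CPM in RP, 0.826 and 2.38 CPM in R+D, and 1.41 and 2.44 CPM in Ctrl. The summed skeletal muscle list stood at 408 and 202 CPM in RP and 128 and 495 CPM in R+D, against 118 and 144 CPM in Ctrl. With 2 libraries a group, the test for a library far from the others does not apply.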

How the results depend on the processing

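With 2 libraries a group, 1 library could carry a result. For RP against Ctrl, 1 member was called with only the groups compared in the fit and 5 with DESeq2, against 0; for the averaged conjugate comparison 4 were called with DESeq2, and leaving out 1 library at a time gave 0 to 26. Left-out libraries moved the DOX against Ctrl median from -0.83 to 0.15, and the DPD against DOX median from -0.65 to 0.33. The other medians kept their sign except R+D against R+X (-0.10 to 0.03): RP -0.87 to -0.25, R+X -0.83 to -0.26, R+D -0.82 to -0.31, DPD -0.73 to -0.19, averaged -0.50 to -0.13. Removing the length trend kept the signs and gave medians nearer to 0, of -0.25 for RP, -0.19 for R+X, -0.26 for R+D, -0.21 for DPD and -0.11 for DOX against Ctrl, -0.12 for DPD against DOX and -0.14 for the averaged comparison; R+D against R+X was at -0.03. In RP against Ctrl, Sdha ranged from -0.13 to 0.10 and Cox5b from -1.16 to 0.13, turned by leaving out RP replicate 2. In DPD against DOX, Ndufa7 ranged from -0.94 to 0.12, turned by leaving out DOX replicate 1. The causes were not tested. RLE scaling and no low-count filter changed no call and no sign among the medians over the members. The averaged comparison and the test over 6 groups use all groups, so a fit of only the groups compared gave no value for them. A lone library left in a group was assumed to vary like the others. No paired analysis was possible because the labels number no replicates.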

Other observations

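Genes of hypoxia and glycolysis, the route that makes ATP without the respiratory chain, moved in both directions. In RP against Ctrl, 11 of 16 had a lower level and 5 a higher one, at a median log2 fold change of -0.27, with 0 called by edgeR, 4 lower and 2 higher at an unadjusted p under 0.05, where 9.38% of all genes were lower and 2351 of 19525 higher. Car9, a hypoxia-induced carbonic anhydrase, averaged 17.02 CPM in RP and 29.7 CPM in Ctrl (log2 fold change -0.80 ± 0.22, edgeR adjusted p = 0.146). Hk2, a hexokinase, averaged 76.6 CPM in RP and 49.5 CPM in Ctrl (0.63 ± 0.20, edgeR adjusted p = 0.166). The list summed to 13993 and 13037 CPM in RP, 16017 and 16421 CPM in R+X, 12116 and 14317 CPM in R+D, 14403 and 14503 CPM in DPD, 21080 and 13954 CPM in DOX, and 15799 and 18646 CPM in Ctrl. In R+D against R+X, 16 of 16 were lower, at a median of -0.30 (edgeR, 0 called, 4 at an unadjusted p under 0.05, where 1.52% of all genes were lower).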
